A study of Mus musculus with 6 samples.

Results

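The 41 collagen chain genes described here are those whose symbol in the deposited annotation has the form of a collagen chain (Col, the type, a, the chain) and whose probe sets name that gene alone, out of 20678 genes measured. They fall into 5 classes: 11 fibrillar chains, 8 of basement membranes (types IV, XV and XVIII), 9 fibril-associated chains (FACIT), 5 of type VI and 8 others. Where a gene had several probe sets, as 26 of the 41 did, the one of highest mean intensity in the 4 fractions stands for it.

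The RNA came from the liver of C57Bl6 mouse embryos of wild type genotype at stage E12.5, with no treatment named, and was read on Affymetrix mouse genome arrays. Of the 6 groups, 1 was liver cells, 1 was ALCAM+ cells, and the others were ALCAM+ cells divided in 2 ways, into PDPN+ and PDPN- and into ITGA8+ and ITGA8-. ALCAM mediates adhesion between cells, podoplanin (PDPN) is found on mesothelial and lymphatic cells, and ITGA8 is an integrin alpha subunit that the series ties to a kind of hepatic stellate cell. All 6 groups share genotype, strain and stage. Each group was 1 array made from 20 ng of total RNA, so there was no test, no p-value and no spread between samples, and every difference below is a difference between 2 arrays. How many embryos a sample pooled, and how the cells were sorted, is not stated in the labels.

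The arrays form 2 sets on different scales, liver with ALCAM+ and the 4 fractions, and differences were taken within a set. The median over probe sets was 42 for liver, 66 for ALCAM+ and 123 to 200 for the fractions, in units of intensity. The sort markers followed the labels: Alcam was at 13425 in ALCAM+ and 3207 in liver, Pdpn at 7746 in PDPN+ and 117 in PDPN-, and Itga8 at 4354 in ITGA8+ and 871 in ITGA8-. Itga8 was also at 2215 in PDPN- and Pdpn at 4658 in ITGA8+. Alb, a hepatocyte lineage gene, was at 12832 to 25926 in all 6 arrays. The PDPN- array stands apart from the other fractions, holding the lowest of the 4 values for 40.4% of 14508 genes, where ITGA8- held the lowest for 13.7%.

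Collagens are secreted proteins of 3 chains wound into a triple helix. Fibrillar collagens (types I, II, III, V, XI, XXIV and XXVII) build the banded fibres of the interstitium, type IV builds the sheet-like network of basement membranes, FACIT collagens decorate fibrils, and type VI forms beaded microfilaments next to cells. In liver, stellate cells and portal fibroblasts are known as main sources of fibrillar collagen, while the mesothelium that covers the organ rests on a basement membrane. Type IV chains assemble in fixed partnerships, alpha 1 with alpha 2, alpha 3 with alpha 4 and alpha 5, and alpha 5 with alpha 6.

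The first comparison sets ALCAM+ against liver cells. Collagen genes of every class were higher in ALCAM+ cells, with the type VI genes Col6a2, 19.2-fold, and Col6a1, 18.3-fold, at the top. Col6a1 was at 73 in liver and 3032 in ALCAM+ cells, Col6a2 at 78 and 3363, and Col6a3 at 50 and 914. These folds are on the scale of log2(intensity + 16) and relative to the shift of 0.90 log2, or 1.87-fold, that the median gene tested showed between these arrays. A gene counted where the higher of its arrays exceeded an intensity of 109.0, the median of all probe set values, called the floor below, and 27 of 41 collagens did. Of these 27, 24 were at least 2-fold higher and 1 was 2-fold lower, against a background of 15.4% of all genes tested higher and 11.2% lower. Without that centring 26 chains were past 2-fold higher, but so were 45.5% of all genes, with 2.55% lower. For 18 of the 25 chains past 2-fold on the centred scale the lower array was at or below the floor. They entered through the array in which they are high, and the size of their fold depends on the added constant. For some the call does too: with 64 added in place of 16, 18 chains were higher and 1 lower, beside 10.7% and 8.57% of all genes. Col2a1, Col15a1, Col9a1, Col9a2, Col16a1 and Col13a1 then fell short of 2-fold, at 0.395 to 0.971 log2. Among the 9 chains with both arrays above the floor 7 were 2-fold higher and 0 lower, where 8.49% and 12.0% of all such genes were. RNA from bulk sorted cells cannot tell a larger share of collagen-producing cells apart from more collagen RNA per cell.

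Among fibrillar chains all 8 above the floor were past 2-fold higher, though Col2a1, Col11a1 and Col27a1 were below it in liver and entered through ALCAM+ only. Col5a2, a chain of the type V collagen that nucleates fibrils, was at 132 in liver and 2961 in ALCAM+ cells, 10.8-fold higher. Col3a1, the only chain of type III collagen, was at 852 and 8518, 5.26-fold higher, and Col1a1, the major chain of type I collagen, at 1891 and 11943, 3.36-fold. A further probe set of Col1a1 gave 467 and 8809, a log2 difference of 3.29 in place of 1.75, so the size of this fold rests on the probe set used. Other probe sets fell short of 2-fold for Col11a1, at 94 and 307 or 0.65 log2, and for Col5a1, at 109 and 424 or 0.91 log2. Col1a2 was at 617 and 5974, Col5a1 at 152 and 1627, Col11a1 at 15 and 332, and Col27a1 at 89 and 541. Col2a1, the cartilage collagen, was at 15 and 114, just over the floor in ALCAM+ cells, and short of 2-fold with 64 added.

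The common basement membrane chains differed least. Col4a1 was at 444 in liver and 1590 in ALCAM+ cells, and Col4a2 at 308 and 1161, which relative to the shift is 1.87-fold and 1.94-fold, short of the 2-fold line. Their relatives were further apart: Col4a6 was at 9 and 388, 8.65-fold higher, and Col4a5 at 53 and 835, 6.60-fold. Col18a1, whose C-terminal fragment is endostatin, was at 222 and 2048, 4.64-fold higher, and Col15a1, its close relative, at 9 and 141, 3.36-fold. Col4a3, at 14 and 56, and Col4a4, at 21 and 109, did not exceed the floor in either array with the probe sets used. Another probe set of Col4a4 was at 14 and 168, above the floor in ALCAM+ cells, a log2 difference of 1.715.

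Of 7 FACIT chains above the floor, 6 were past 2-fold higher, beside 15.4% of all genes tested. All 6 were below the floor in liver and entered through ALCAM+ only. No FACIT chain had both arrays above the floor, so the count says little about the class. Col9a3, a chain of the type IX collagen found on cartilage fibrils, was at 6 in liver and 354 in ALCAM+ cells, a log2 difference of 3.17, and Col14a1, of interstitial fibrils, at 30 and 520, 6.24-fold. Col12a1 was at 12 and 356, Col16a1 at 49 and 285, Col9a2 at 14 and 198, and Col9a1 at 17 and 121. With 64 added, Col16a1, Col9a2 and Col9a1 were short of 2-fold, at 0.85, 0.971 and 0.415 log2. Col19a1 was the 1 chain past 2-fold lower, at 121 and 65, both close to the floor; its other probe sets were at 12 to 20 in these arrays. The other chains past 2-fold were Col8a2, of the type VIII network beneath endothelia, at 35 and 689, and the transmembrane collagens Col13a1, at 44 and 288, and Col25a1, at 321 and 1363.

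**Figure D1:**
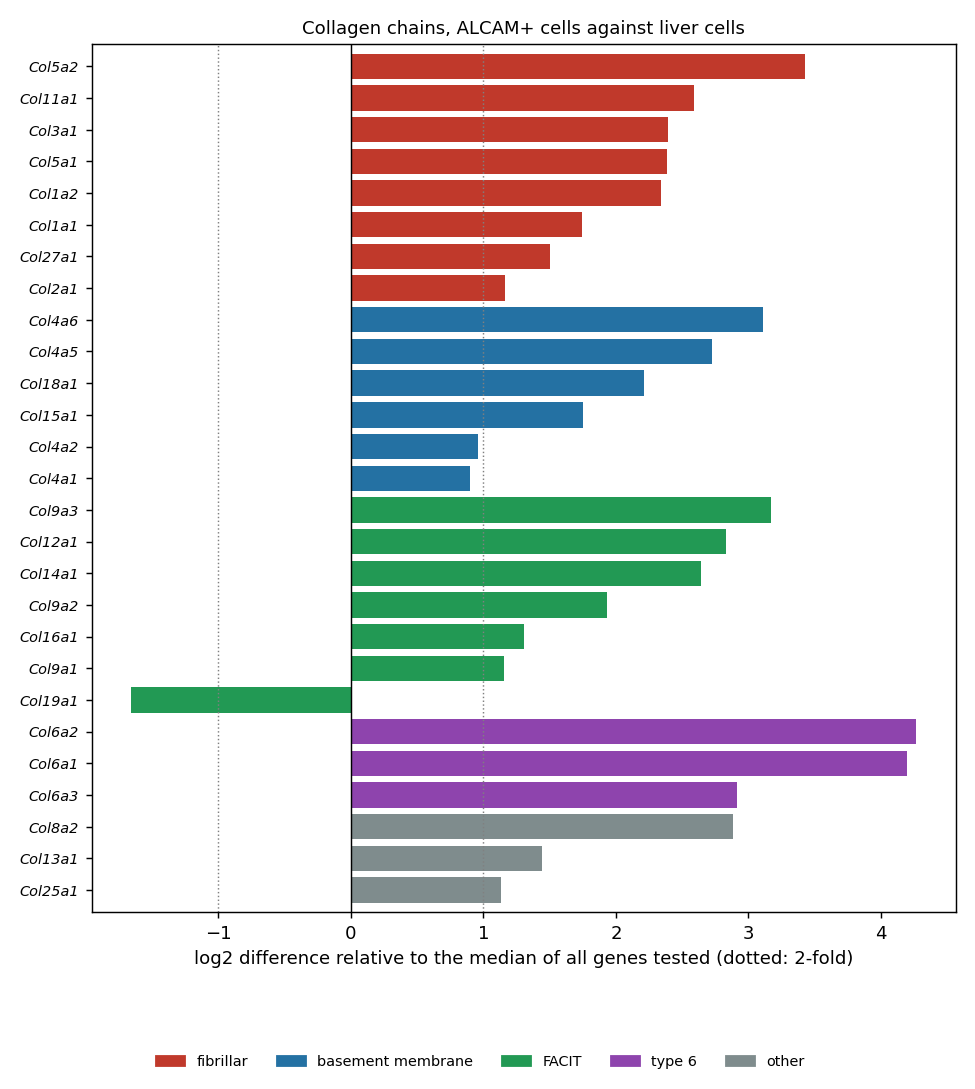
Log2 difference of ALCAM+ cells minus liver cells, relative to the median of all genes tested, for the 27 collagen chains above the floor (bars, 1 array per group, coloured by class); dotted lines mark 2-fold. All bars but Col19a1 point toward ALCAM+ cells, Col6a2 and Col6a1 are longest, and Col4a1 and Col4a2 stay short of 2-fold.

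The podoplanin split shows how the chains divide within ALCAM+ cells. In PDPN+ cells 6 of 8 fibrillar chains above the floor, 5 of 5 FACIT chains and 5 of 8 basement membrane chains were higher than in PDPN- cells, while Col1a1, Col24a1, Col4a1, Col4a2, Col18a1, Col6a3, Col13a1 and Col25a1 were within 2-fold. Col12a1, at 1130 in PDPN+ and 39 in PDPN- cells, and Col4a6, at 1416 and 61, were furthest apart. Their PDPN- values lie below the floor described above, so the sizes depend on the added constant: the log2 difference was 4.38 and 4.22 with 16 added, and 3.54 and 3.57 with 64. Of 41 chains 27 exceeded the floor, 19 of them were at least 2-fold higher in PDPN+ cells and 0 lower, against 19.9% of all genes tested higher and 7.93% lower. The lower array was at or below the floor for 6 of the 19. These were Col4a3, Col4a4, Col4a6 and Col15a1 of basement membranes and the FACIT chains Col9a2 and Col12a1. They entered through PDPN+ only. Of the basement membrane chains, Col4a5 alone was past 2-fold with both arrays above the floor, so the count of that class says little. With both arrays above the floor, 13 of 20 chains were higher and 0 lower, beside 11.5% and 6.89% of all such genes. Where a second probe set of a chain past 2-fold was above the floor, it was past 2-fold the same way for 12 of 12.

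**Figure D2:**
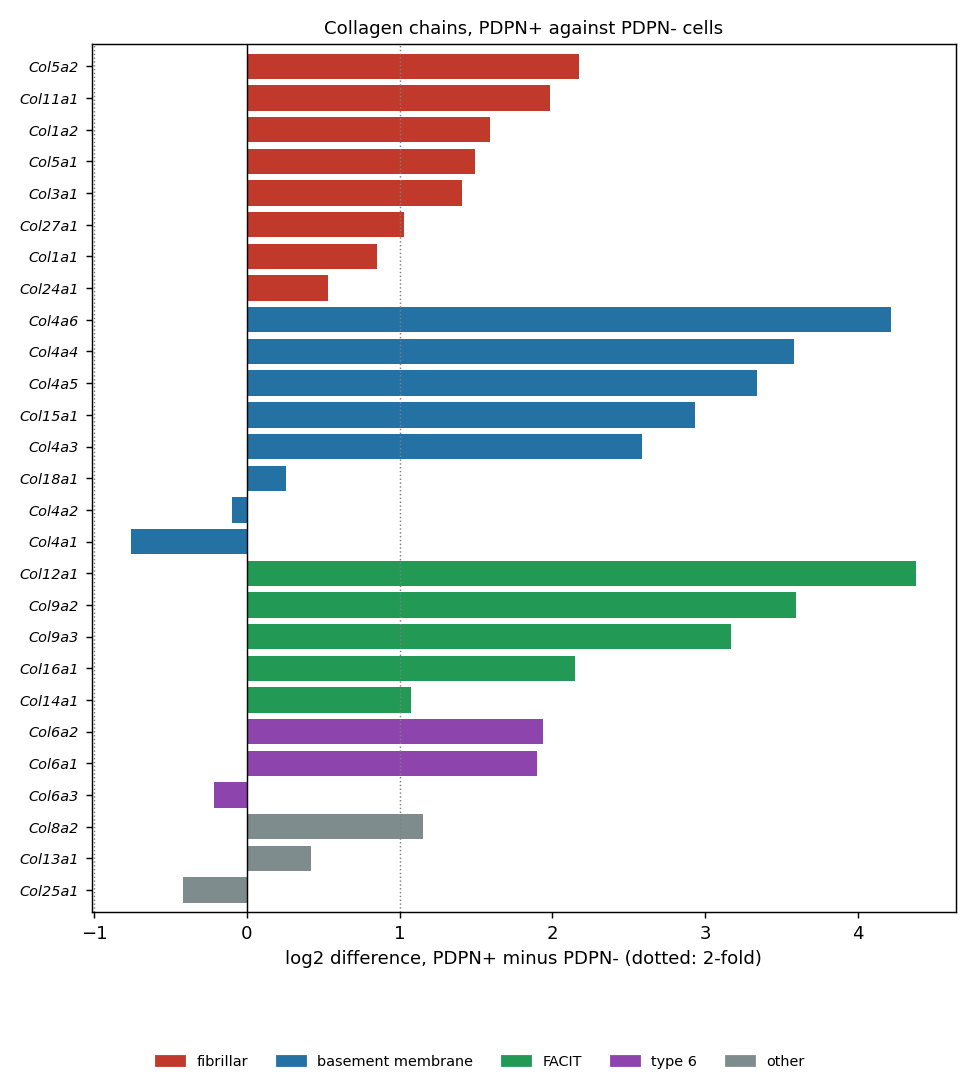
Log2 difference of PDPN+ minus PDPN- cells for the 27 collagen chains above the floor (bars, 1 array per group, coloured by class); dotted lines mark 2-fold. Col12a1 and Col4a6 are the longest bars, both with a PDPN- value below the floor, and Col4a1, Col4a2, Col6a3 and Col25a1 point slightly toward PDPN- cells.

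In the integrin split the chains went in opposite directions: 10 were at least 2-fold higher in ITGA8+ cells, among them Col4a1, Col4a2, Col6a2, Col6a3, Col9a1 and Col9a3, and 3 were lower, Col4a5, Col4a6 and Col8a2. Of 41 chains 34 exceeded the floor, and the background was 5.38% of all genes tested higher and 6.0% lower. None of the 13 had an array at or below the floor, and with both arrays above it 10 of 33 were higher and 3 lower, beside 4.39% and 5.25% of all such genes. A second probe set above the floor went the same way for 5 of 5 chains past 2-fold and was itself past 2-fold for 3; the exceptions were Col4a1 and Col9a3. The largest of these differences were Col4a6, 4.27-fold lower, and Col9a1, 4.06-fold higher.

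**Figure D3:**
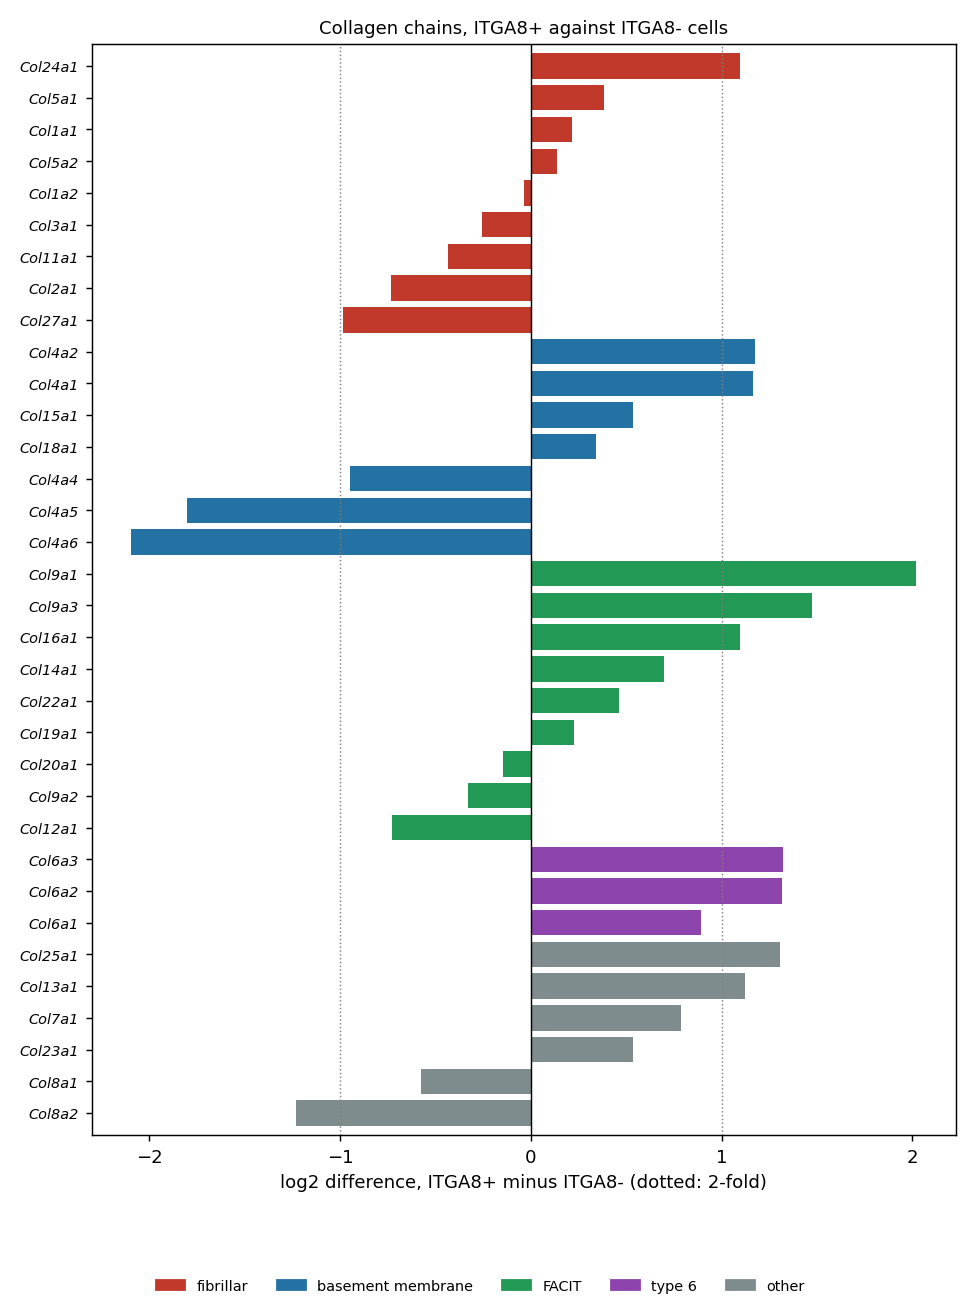
Log2 difference of ITGA8+ minus ITGA8- cells for the 34 collagen chains above the floor (bars, 1 array per group, coloured by class); dotted lines mark 2-fold. Type VI chains, Col4a1 and Col4a2 point toward ITGA8+ cells, Col4a5, Col4a6 and Col8a2 toward ITGA8- cells, and the main fibrillar chains stay near 0.

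PDPN- was the lowest of the 4 fractions for 8 of the 9 fibrillar chains above the floor in some fraction, as it was for 40.4% of all genes. The order of the other 3 arrays differed between chains. Col2a1, counted among the 8, was at 21 in PDPN- and 81 in PDPN+ cells, both below the floor. Col1a2, which joins the Col1a1 chain in type I collagen, was at 17455 in PDPN+, 14822 in ITGA8-, 14474 in ITGA8+ and 5786 in PDPN- cells. Only the PDPN- value is apart, giving 3.01-fold in the PDPN comparison and a log2 difference of -0.03 in the ITGA8 comparison. Col3a1 was at 20710 in PDPN+, 17058 in ITGA8-, 14293 in ITGA8+ and 7789 in PDPN- cells. Col5a2, the neighbour of Col3a1 on chromosome 1, was at 9347, 7330, 8073 and 2060 in the same order, and its partner chain Col5a1 at 4487, 4063, 5301 and 1583. For these chains, with the probe sets used, the ITGA8 pair differed by 1.30-fold or less, and PDPN- lay below all the others. Another probe set of Col5a1 was at 905 in ITGA8+ and 1519 in ITGA8- cells, a log2 difference of -0.74. Another of Col1a2 was at 17222 and 12528, a log2 difference of 0.46.

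Col1a1 was at 20881 in PDPN+, 16530 in ITGA8-, 19236 in ITGA8+ and 11581 in PDPN- cells, which left it short of 2-fold in the PDPN comparison. Its further probe set, of lower intensity, was at 11677 in PDPN+ and 3413 in PDPN- cells, a log2 difference of 1.77 in place of 0.85, like those of the other type I and III chains. Col11a1, which is built into the core of thin fibrils, was at 1080 in PDPN+, 1072 in ITGA8-, 789 in ITGA8+ and 261 in PDPN- cells.

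Col27a1 and Col24a1, outlying members of the fibrillar class, departed from that order. Col27a1 was at 3841 in PDPN+, 2521 in ITGA8-, 1877 in PDPN- and 1265 in ITGA8+ cells, and was the only fibrillar chain lowest in ITGA8+. Its ITGA8 difference was -0.99 with this probe set and -0.13 with its other probe set. The other probe set was at 1724 in ITGA8+ and lowest in PDPN- cells, at 1119, so the departure of Col27a1 rests on 1 probe set. Col24a1 was at 317 in ITGA8+ and 140 in ITGA8- cells, 2.13-fold higher, and at 110 and 71 in PDPN+ and PDPN-, where only PDPN+ exceeded the floor and by 1 unit. Col5a3 and Col11a2 stayed at or below the floor in all 6 arrays.

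The type IV chains divided by their assembly partnerships. Col4a1 and Col4a2, the ubiquitous pair, were highest in ITGA8+ cells, whereas Col4a5 and Col4a6, the pair of smooth muscle and some epithelial basement membranes, were highest in PDPN+ cells. Each pair lies head to head on 1 chromosome with no protein-coding gene starting between its members, on chromosome 8 and on X, in the RefSeq table of GRCm38.p6. The stretches before the starts of Col4a5 and Col4a6 are shown because this neighbouring pair moved together in every comparison. Both are from RefSeq's GRCm38.p6 sequence, 5′ to 3′ on the strand of the gene, up to the outermost RefSeq transcript start, with capitals for a match on either strand to the CCAAT box, to the TATA box written as TATAAA, or to the GC box written as GGGCGG; Col4a5 is chrX:141475169-141475369 on the plus strand and Col4a6 chrX:141474096-141474326 on the minus strand.
Col4a5: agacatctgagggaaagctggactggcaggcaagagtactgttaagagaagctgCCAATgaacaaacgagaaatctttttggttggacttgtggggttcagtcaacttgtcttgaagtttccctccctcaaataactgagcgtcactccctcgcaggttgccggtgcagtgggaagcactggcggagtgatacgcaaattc
Col4a6: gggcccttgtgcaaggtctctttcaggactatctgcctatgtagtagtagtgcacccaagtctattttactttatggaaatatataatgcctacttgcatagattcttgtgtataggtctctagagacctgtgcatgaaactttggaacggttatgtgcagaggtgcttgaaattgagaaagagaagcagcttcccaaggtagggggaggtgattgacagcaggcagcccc
Within the printed stretches there is 1 CCAAT, before Col4a5. In the whole window of 250 bases before the annotated start, which runs past them, each gene also has 1 GGGCGG match.

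Over all promoters of the RefSeq table, a CCAAT on either strand stands in the 250 bases of 37.5% of 27025 genes, a TATAAA in 14.3% and a GGGCGG in 35.4%. A gene with several promoter entries counted where any of them matched, and the number of entries per gene was not compared between collagens and other genes. The table held 33 of the 41 collagen genes, with a match to CCAAT in 13, to TATAAA in 5 and to GGGCGG in 20, or 60.6%. A match is a run of letters and not a shown binding site.

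Col4a1 was at 7337 in ITGA8+, 3262 in ITGA8-, 2796 in PDPN- and 1646 in PDPN+ cells, and Col4a2 at 6018, 2653, 1373 and 1284 in the same order. Both were highest in ITGA8+ cells, 2.24-fold and 2.26-fold above ITGA8-, and both were lowest in PDPN+ cells. Between PDPN+ and PDPN- cells the log2 difference was -0.76 for Col4a1 and -0.10 for Col4a2. The second probe set of Col4a1 gave -1.23 there, and 1515 in ITGA8+ against 1144 in ITGA8- cells, a log2 difference of 0.40 in place of 1.17.

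Col4a5 ran the other way, at 5800 in PDPN+, 3772 in ITGA8-, 1070 in ITGA8+ and 558 in PDPN- cells. Col4a6 was at 1416, 1309, 294 and 61 in the same order. Both were thus high in PDPN+ and ITGA8- and low in ITGA8+ and PDPN- cells, with Col4a5 10.1-fold higher in PDPN+ than PDPN- cells and 3.49-fold lower in ITGA8+ than ITGA8- cells. A further probe set of each was past 2-fold the same way in both comparisons.

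Col4a3 and Col4a4, which trimerise with alpha 5 in kidney and lung, were low but followed the same order at the top. Col4a4 was at 439 in PDPN+, 227 in ITGA8-, 110 in ITGA8+ and 22 in PDPN- cells. Col4a3 was at 338 in PDPN+ cells and at 37 to 64 in the other fractions, below the floor. Its other probe set was below the floor in all arrays, at 41 in PDPN+ cells, so the PDPN+ value has no second reading. Of the multiplexin chains, which carry heparan or chondroitin sulfate chains, Col18a1 was even over the fractions, at 4420 to 6231, and Col15a1 was at 333 in ITGA8+, 236 in PDPN+, 225 in ITGA8- and 17 in PDPN- cells.

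**Figure D4:**
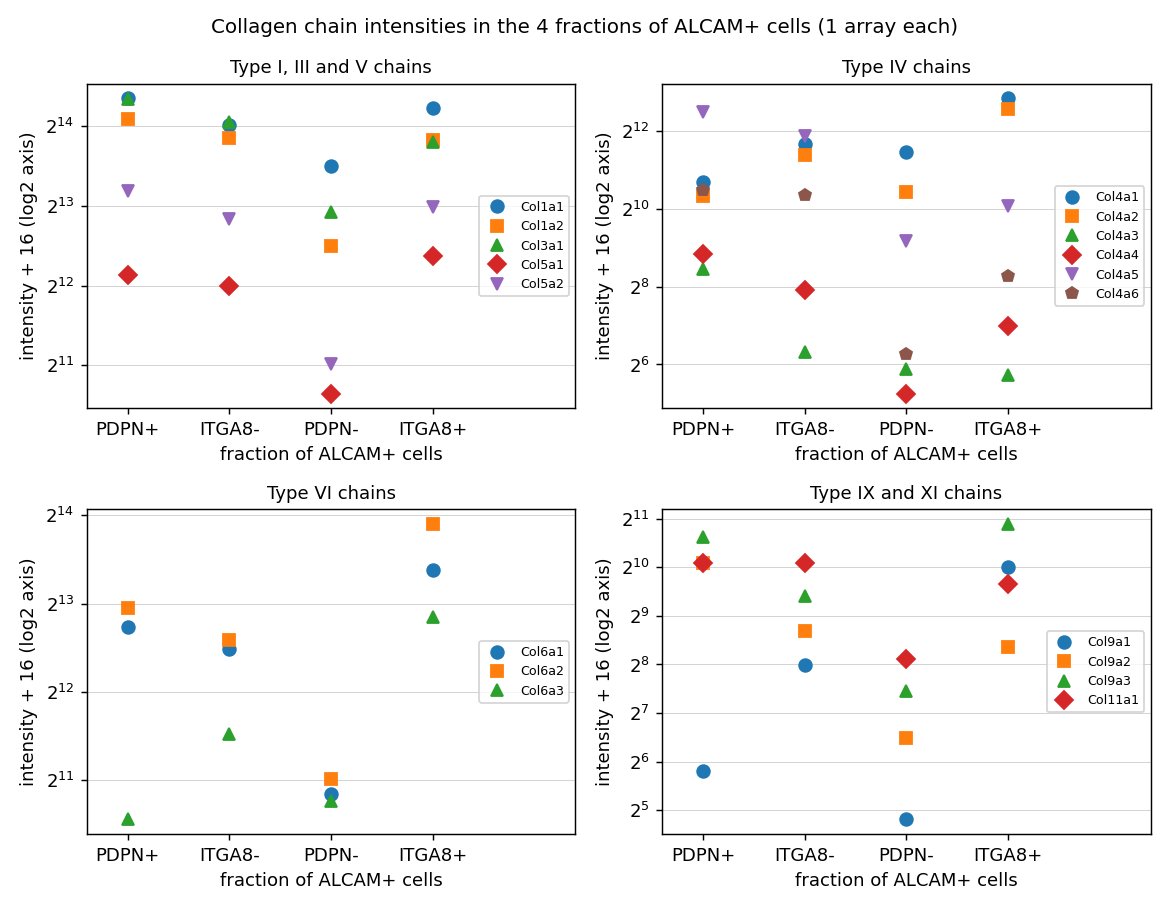
Intensity + 16 (log2 axis) of the chains of types I, III and V, type IV, type VI, and types IX and XI in the 4 fractions (1 point per array; levels of different chains are not comparable, since probe sets differ in response). Fibrillar chains dip only in PDPN-, Col4a1 and Col4a2 peak in ITGA8+, Col4a5 and Col4a6 peak in PDPN+, and Col6a3 parts from Col6a1 and Col6a2 in PDPN+.

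All 3 classical type VI chains were highest in ITGA8+ cells. Col6a1 was at 10675 in ITGA8+, 6825 in PDPN+, 5743 in ITGA8- and 1819 in PDPN- cells, and Col6a2 at 15285, 7884, 6119 and 2043 in the same order. These neighbours on chromosome 10 differed by 1.86-fold and 2.49-fold between ITGA8+ and ITGA8- cells, and by 3.73-fold and 3.84-fold between PDPN+ and PDPN- cells. Col6a3, the longest chain of the type VI trimer, was at 7358 in ITGA8+, 2932 in ITGA8-, 1729 in PDPN- and 1488 in PDPN+ cells. It shared the ITGA8 difference of its partners, 2.50-fold, and not the PDPN difference, where its log2 value was -0.21. Col6a3 and Col6a1 were each read by 1 probe set, so this gap between partners has no second reading within the arrays for them; both probe sets of Col6a2 gave 1.86 or more log2 in the PDPN comparison. Col6a4 and Col6a5 stayed at or below the floor in all 6 arrays.

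The 250 bases before the starts of Col6a1 and Col6a2 are shown because these neighbours, transcribed in the same direction, moved in the same direction in all 4 comparisons. They are from the same RefSeq table of GRCm38.p6 and marked in the same way, Col6a1 at chr10:76726045-76726294 and Col6a2 at chr10:76623631-76623880, both on the minus strand.
Col6a1: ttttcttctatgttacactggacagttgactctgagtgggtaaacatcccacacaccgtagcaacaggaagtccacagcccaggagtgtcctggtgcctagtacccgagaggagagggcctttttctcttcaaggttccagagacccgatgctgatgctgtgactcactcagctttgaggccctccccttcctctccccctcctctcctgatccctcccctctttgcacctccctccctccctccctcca
Col6a2: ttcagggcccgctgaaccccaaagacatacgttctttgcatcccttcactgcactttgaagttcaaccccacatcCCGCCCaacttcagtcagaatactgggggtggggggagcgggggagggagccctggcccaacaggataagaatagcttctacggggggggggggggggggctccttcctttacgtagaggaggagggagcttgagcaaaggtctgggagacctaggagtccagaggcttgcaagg
Col6a2 has 1 GGGCGG match, on the opposite strand, and Col6a1 has no match to the 3 motifs.

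FACIT chains were lowest in PDPN- cells for 6 of the 9 above the floor in some fraction, beside 40.4% of all genes. For Col9a1 and Col22a1 among the 6, both PDPN values were below the floor. Col12a1, of tendon and dense connective tissue, was at 1130 in PDPN+, 892 in ITGA8-, 533 in ITGA8+ and 39 in PDPN- cells. Its other 3 probe sets stayed below the floor in all arrays, so its PDPN difference rests on 1 probe set. Col16a1 was at 1240 in ITGA8+, 571 in ITGA8-, 566 in PDPN+ and 115 in PDPN- cells, 2.14-fold higher with the integrin and 4.44-fold with podoplanin. Col14a1 was at 2739 in PDPN+, 1828 in ITGA8+, 1294 in PDPN- and 1120 in ITGA8- cells. Another probe set of Col14a1 was at 763 in ITGA8+ and 338 in ITGA8- cells, a log2 difference of 1.14 in place of 0.70. Of the low chains, Col19a1 was at 196 in ITGA8+, 165 in ITGA8-, 36 in PDPN- and 8 in PDPN+ cells, Col20a1 at 188, 210, 71 and 31, and Col22a1 at 178, 125, 31 and 61. For Col19a1 another probe set went the other way, at 141 in PDPN+ and 144 in ITGA8- against 26 in ITGA8+ and 4 in PDPN- cells, so its order is not settled by these arrays.

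The 3 chains of type IX collagen, which join into a single trimer in cartilage, did not follow a common order. Col9a1 was at 1014 in ITGA8+, 238 in ITGA8-, 40 in PDPN+ and 12 in PDPN- cells, so that both arrays of the PDPN sort were below the floor. The other probe set of Col9a1 was below the floor in all arrays, at 74 in ITGA8+ cells, so its differences have no second reading. Col9a2 was instead highest in PDPN+ cells, at 1073, against 314 in ITGA8+ and 74 in PDPN- cells, with ITGA8- within 1.26-fold of ITGA8+. Col9a3 was high in both positive fractions, at 1881 in ITGA8+ and 1569 in PDPN+, and lower in ITGA8-, at 666, and PDPN-, at 160. A further probe set of Col9a3 gave 733 in PDPN+ and 391 in ITGA8+ cells, so which of these fractions is the higher depends on the probe set. Col2a1, the main collagen of cartilage, peaked at 255, in ITGA8- cells.

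The remaining classes held 8 chains, of which 6 exceeded the floor in some fraction. Col25a1, a transmembrane collagen, was at 6957 in ITGA8+, 5308 in PDPN-, 3967 in PDPN+ and 2805 in ITGA8- cells, and Col13a1, another one, at 1697 in ITGA8+, 772 in ITGA8-, 373 in PDPN+ and 275 in PDPN- cells. Both were past 2-fold with the integrin, 2.47-fold and 2.17-fold, and within 2-fold with podoplanin. Col8a2 was at 835 in PDPN+, 820 in ITGA8-, 367 in PDPN- and 341 in ITGA8+ cells, the same split as Col4a5 and Col4a6 at a smaller size, while its partner chain Col8a1 was at 194 in ITGA8-, 125 in ITGA8+, 31 in PDPN- and 20 in PDPN+ cells. Col7a1, the anchoring fibril collagen, was at 146 in ITGA8+ and 58 to 78 in the other fractions, and Col23a1, a transmembrane collagen, at 220 in ITGA8+, 147 in ITGA8- and 41 to 45 in both arrays of the PDPN sort. Col10a1 and Col17a1 stayed at or below the floor in all 6 arrays, as did 4 chains named above, which makes 6 of the 41.

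Set side by side, the PDPN and ITGA8 comparisons share no array, and 26 chains were above the floor in both. Of these, 12 were higher in PDPN+ and within 2-fold for the integrin, which 14.9% of 12801 genes were. The 12 hold Col1a2, Col3a1, Col5a1 and Col5a2. They also hold Col14a1 and Col4a4, of which a further probe set was past 2-fold for the integrin, at 1.14 and -1.11 log2. Another 6 were higher in ITGA8+ and within 2-fold for podoplanin, which 2.77% of genes were: Col4a1, Col4a2, Col6a3, Col13a1, Col24a1 and Col25a1. Col4a5, Col4a6 and Col8a2 were higher in PDPN+ and in ITGA8- cells, a pattern of 2.5% of genes, and Col6a2, Col9a3 and Col16a1 were higher in both positive fractions, a pattern of 1.1%. Higher in PDPN- and ITGA8+ were 0 chains, as were only 0.789% of all genes, and Col1a1 and Col18a1 were within 2-fold in both, a pattern of 68.4% of genes. PDPN- held the highest value of the 4 fractions for 0 of 35 chains, where it did so for 26.2% of all genes, and the lowest for 22 of 35, or 62.9%, beside 40.4% of all genes. For Col2a1, Col9a1, Col22a1 and Col23a1 among the 22, both PDPN values were below the floor, so PDPN- being lowest there rests on low values.

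**Figure D5:**
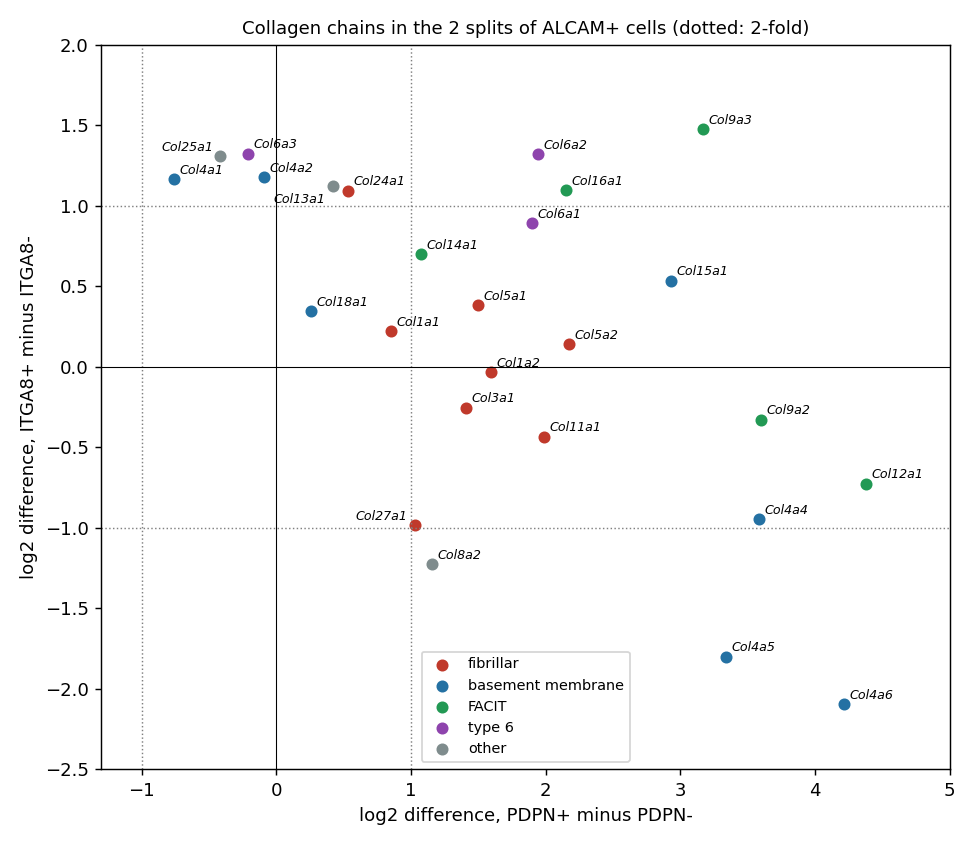
Log2 difference of PDPN+ minus PDPN- (x axis) against ITGA8+ minus ITGA8- (y axis) for the 26 collagen chains above the floor in both comparisons, coloured by class, 1 array per group; dotted lines mark 2-fold. Fibrillar chains lie right of 0 and mostly near 0 in height, Col4a1, Col4a2, Col6a3 and Col25a1 lie at the upper left, and Col4a5 and Col4a6 at the lower right.

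The last comparison sets ITGA8+ against PDPN+ cells and shares an array with each split. Col4a2, 4.64-fold, Col4a1, 4.42-fold, Col6a3, 4.90-fold, and Col13a1, by 2.14 log2, were higher in ITGA8+ cells, and Col4a5, 5.36-fold, Col4a6, 4.62-fold, Col4a4, 3.61-fold, Col9a2, 3.30-fold, and Col27a1, 3.01-fold, were higher in PDPN+ cells. Col4a3 was at 338 in PDPN+ and, below the floor, at 37 in ITGA8+ cells. Of 35 chains above the floor 13 were past 2-fold toward ITGA8+ and 8 toward PDPN+, against a background of 16.3% and 14.2%. With both arrays above the floor the counts were 6 and 7 of 26, beside 11.9% and 12.3% of all such genes. The chains of types I, III and V above the floor differed by 1.45-fold or less with the probe sets used. Another probe set of Col5a1 was at 905 in ITGA8+ and 1801 in PDPN+ cells, a log2 difference of -0.98. Col9a1 was at 1014 in ITGA8+ cells and, below the floor, at 40 in PDPN+ cells; its log2 difference of 4.20 was 3.37 with 64 added. A second probe set above the floor was past 2-fold the same way for 4 of 6 chains past 2-fold, and of 16 collagens with such a probe set 10 had the same sign in both. Col27a1 was at -1.59 log2 with the probe set used and -0.62 with its other one.

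Genes whose products modify, fold, cleave or cross-link collagen followed part of the same pattern. Of 31 measured, 28 exceeded the floor in ALCAM+ or liver cells; 18 of these were past 2-fold toward ALCAM+ and 0 toward liver, beside 15.4% and 11.2% of all genes, with Lox, a lysyl oxidase that cross-links fibrils, at a log2 difference of 3.08 relative to the shift. Pcolce, which enhances removal of the procollagen C-propeptide, was at 3.04, P3h1, a prolyl 3-hydroxylase, at 2.60 and Loxl1 at 2.56. In liver 15 of the 31 were at or below the floor, P3h1 at 40 and Loxl1 at 17 among them. Most of the 18 were such genes. They entered through ALCAM+ only, the array in which they are high, and their differences depend on the added constant. No count with both arrays above the floor was made for this list. Lox, at 142, and Pcolce, at 162, were above the floor in liver. In PDPN+ against PDPN- cells 12 of 30 were higher and 2 lower, beside 19.9% and 7.93% of all genes, so the lower count is near the background. Lox was at 5196 in PDPN+, 4461 in ITGA8-, 5021 in ITGA8+ and 805 in PDPN- cells, lowest in PDPN- as most fibrillar chains were. Loxl1 had a log2 difference of 2.60 in that comparison and Pxdn, which forms the sulfilimine cross-links of type IV collagen, 2.15. Tll1, a procollagen C-proteinase gene, was counted as higher with 110 in PDPN+ and 1 in PDPN- cells, barely over the floor, and the size of its difference is set by the added constant. The 2 genes higher in PDPN- cells were P3h2, a prolyl 3-hydroxylase of basement membrane collagen, at 1209 in PDPN- and 426 in PDPN+ cells, and Pcolce2, at 2260 and 1058.

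Between ITGA8+ and ITGA8- cells 2 of 29 maturation genes were higher and 2 lower, which is near the 5.38% and 6.0% of all genes and so no result about the list. Adamts2, the N-proteinase of procollagens I and III, was at 2615 in ITGA8+ and 358 in ITGA8- cells, 7.03-fold higher, and Pcolce at 13771 and 6625. Lower were P4ha2, a prolyl 4-hydroxylase subunit, at 551 and 1212, and Plod2, which hydroxylates telopeptide lysines, at 617 and 1280. Toward ITGA8+ against PDPN+ cells 3 of 30 were higher, Adamts2 with a log2 difference of 3.52, P3h2 with 1.65 and Pcolce with 1.30, and 6 were lower, beside 16.3% and 14.2% of all genes, among them Pcolce2 at -1.58, Plod2 at -1.47, P4ha2 at -1.20 and P4ha1 at -1.18.

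Of 11 measured genes of a list of collagen receptors, Ddr2, the receptor tyrosine kinase for fibrillar collagen, was at 3969 in ITGA8+, 2412 in ITGA8-, 1531 in PDPN+ and 315 in PDPN- cells, and Ddr1, its epithelial relative, at 4958, 6646, 7381 and 2898 in the same order. Mrc2, an endocytic collagen receptor, was at 603 in PDPN- and 2301 to 2809 in the other fractions. In ALCAM+ against liver cells 4 of 8 receptors were higher and 0 lower, beside 15.4% and 11.2% of all genes. All 4 were below the floor in liver, Ddr1 at 79, Ddr2 at 31, Gp6 at 41 and Mrc2 at 52. They thus entered through the array in which they are high, and the count says little about the list. In the PDPN comparison 6 of 9 were higher and 0 lower, beside 19.9% and 7.93%. Of these, Gp6, Lair1 and Cd93 were below the floor in PDPN- cells, at 3, 12 and 69, and entered through PDPN+ only. In the ITGA8 comparison 1 of 9 was higher and 0 lower, near the background of 5.38% and 6.0%. In ITGA8+ against PDPN+ cells 4 of 10 were higher and 1 lower, beside 16.3% and 14.2%. The 1 gene past 2-fold with the integrin was Gp6, the platelet collagen receptor, at 348 in ITGA8+ and 30 in ITGA8- cells; it is also on the megakaryocyte list. Lair1, an inhibitory receptor of leukocytes, was at 218 in PDPN+ and at 3 to 26 in the other fractions. Itga1 and Itgb1, the subunits of the integrin alpha 1 beta 1 collagen receptor, were within 2-fold in all 4 comparisons.

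Markers of other cell types moved with the same arrays. In PDPN+ against PDPN- cells 9 of 9 mesothelial markers were higher, with a summed intensity of 54731 against 1420, and so were 7 of 7 macrophage markers, 24375 against 378, 7 of 7 megakaryocyte markers, 27086 against 168, and 5 of 5 endothelial markers above the floor, 4620 against 469. Hepatoblast markers summed to 139504 and 163395. Stellate markers were 0 higher and 2 lower of 8, at 17397 and 25090. Of all genes tested 19.9% were higher in this comparison and 7.93% lower. In PDPN- cells 7 of 7 megakaryocyte, 6 of 7 macrophage, 6 of 7 endothelial and 5 of 9 mesothelial markers were at or below the floor. Those counted as higher among them entered through PDPN+ only. In ITGA8+ against ITGA8- cells mesothelial markers were lower in 8 of 9, at 15965 against 41656, stellate markers higher in 6 of 8, at 33205 against 14832, and megakaryocyte markers higher in 6 of 7, at 30909 against 14224. Of all genes 5.38% were higher there and 6.0% lower. In ITGA8+ against PDPN+ cells erythroid markers were higher in 7 of 7, at 30663 against 3105, macrophage markers lower in 7 of 7, at 1321 against 24375, mesothelial markers lower in 8 of 9, stellate markers higher in 5 of 8 and megakaryocyte markers higher in 4 of 7. Of all genes 16.3% were higher there and 14.2% lower, and 3 of the 7 macrophage markers were at or below the floor in ITGA8+ cells. In ALCAM+ against liver cells erythroid markers were lower in 6 of 7, at 7236 against 18767, mesothelial markers higher in 8 of 8 above the floor, at 12385 against 503, megakaryocyte markers higher in 5 of 7 and stellate markers higher in 4 of 6. Of all genes 15.4% were higher there and 11.2% lower. In liver 8 of 9 mesothelial and 6 of 8 stellate markers were at or below the floor. No marker of these lists was at 0 in any array, and their part in the collagen differences was not tested.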

How the data were processed

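Total RNA of 6 cell samples, 1 array each, had been amplified, biotin-labelled and hybridised, per the labels' protocols. Each deposited value is a probe set's intensity, linear and rounded to a whole number; RMA and Partek are named per the submitters' processing notes, without versions or a genome build. The liver and ALCAM+ arrays and the 4 fraction arrays carry different scales. Of 45101 probe sets, 38011 named 1 gene, for 20678 genes. Symbols were taken by Entrez identifier from a RefSeq table of GRCm38.p6, which matched 92.11% of them.

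Differences were computed in Python 3.11.15 with numpy 2.4.6, pandas 2.3.3 and statsmodels 0.14.6 as log2(intensity + 16) of 1 array minus another, counted at 2-fold where the higher array exceeded 109.0. ALCAM+ minus liver was centred on the median of the genes so tested; the design had named all genes, and centring on every gene is an alternative added after the data were seen. The counting was tested on simulated data with 4-fold changes in genes above 4 times the floor. That test does not cover calls near 2-fold or near the floor. Named genes are all collagen chains, and of the other lists those past 2-fold, at most the 4 largest per direction. Itga1, Itgb1 and the second probe sets were chosen after their values were seen. Cd93 on the receptor list is no established collagen receptor. The members and lists were chosen with earlier results of these data known. Alternatives were the added constant, the floor, the probe set, the scaling and the fold threshold. The number of arrays limits the precision.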

Additional observations from a re-analysis of the deposited data

How the results depend on the processing

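No paired analysis was possible because each group is 1 array. Values are chains past 2-fold. In ALCAM+ minus liver, where 24 were higher and 1 lower, 4 times the floor left 14 and 0 (14 in all), a 4-fold line 15 and 0 (15 in all), and values as deposited or the median of a gene's probe sets 0 lower; as deposited 26 were higher, with 45.5% of all genes. With 64 added 18 were higher and 1 lower, beside 10.7% and 8.57% of all genes. The median collagen difference, 2.34, was 1.8 with 64 added, 1.31 without a floor and 3.24 as deposited. In PDPN+ minus PDPN- a 4-fold line left 10 of 19, all higher; without a floor 2 were lower and the median moved from 1.59 to 1.03. In ITGA8+ minus ITGA8- a 4-fold line left 1 higher and 1 lower (2 of 13), and 5 in place of 3 were lower without a floor or with the median of probe sets. In ITGA8+ minus PDPN+ 4 times the floor left 6 higher (13 past 2-fold of 21) and turned the median from 0.47 to -0.15, specific probe sets turned it to -0.14 and the median of probe sets to -0.03, and a 4-fold line left 7 higher and 3 lower (10 in all). Of chains past 2-fold, those that turned direction were Col12a1 with the median of its probe sets, at -0.17 in ALCAM+ minus liver and 0.46 in ITGA8+ minus PDPN+, and Col22a1 with specific probe sets, at -0.039 in the latter. Smaller differences also changed sign: in ITGA8+ minus ITGA8- with the median of probe sets Col12a1 (-0.73 to 0.46), Col19a1 (0.23 to -1.02), Col20a1 (-0.15 to 0.52) and Col23a1 (0.53 to -0.28), with specific probe sets Col22a1 (0.46 to -0.35), and with the mean over 6 arrays Col1a2 (-0.03 to 0.46); in PDPN+ minus PDPN- with quantile normalisation Col13a1 (0.42 to -0.18) and Col24a1 (0.53 to -0.14); and in ITGA8+ minus PDPN+ Col9a3 (0.26 to -0.88). Other changes of sign were smaller than the gap between probe sets. Quantile normalisation, loess, the floor of the arrays compared and 1 as the added constant moved no count of chains by over 1.5 times. Where no construction explains a change, the cause was not tested. Chains near the floor of 109.0 are limited by their signal over background.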

Other observations

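The gene now named Col26a1 is listed under its older symbol Emid2 and so falls outside the rule by which the collagens were chosen; it was singled out after its values were seen. The gene has 2 probe sets, and values are given only for that of highest mean intensity in the 4 fractions. It was at 26 in liver and 556 in ALCAM+ cells, 7.29-fold higher relative to the shift of the median gene. Among the fractions it was at 3869 in ITGA8+, 1786 in ITGA8-, 179 in PDPN+ and 54 in PDPN- cells, which is 2.16-fold higher in ITGA8+ than in ITGA8- and 19.9-fold higher in ITGA8+ than in PDPN+ cells.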
